A study of Danio rerio with 9 samples.

Results

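Cytokine, interferon and innate immune genes were followed in zebrafish brain neurons that had or had not regrown an axon after spinal cord transection. The set holds every gene whose single annotated symbol begins with the letters of a chemokine, interleukin, tumour necrosis factor, colony stimulating factor, Janus kinase, STAT, interferon regulatory factor, interferon-induced, Toll-like receptor, NF-kappaB, complement or major histocompatibility complex (MHC) gene. Both stat3 and cxcr4b were left out by that rule. It took in 76 genes, read by 89 probe sets, out of 8793 genes read by 10795 probe sets with a single symbol. By their names, 12 of the 76 share the first letters and have another function, among them reln (reelin, a secreted matrix protein of brain layering), mxi1 and irf2bp1. These 12 are kept in all counts unless stated.

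All 9 arrays hold RNA of cells sorted by tracer fluorescence from enzymatically dissociated adult zebrafish brain, 3 arrays in each of 3 groups. In lesioned fish the spinal cord was cut completely at vertebra 8 and the tracer Fluororuby applied there. A second tracer, Fluoroemerald, was given 3 weeks later, 4 mm beyond the cut, and brains were collected 1 week after that. Neurons labelled as having regenerated their axon to the second site form the regenerated group and those labelled as not having done so the nonregenerated group. The unlesioned group is neurons of uncut fish traced with Fluororuby at the same vertebra and collected after 1 week. Unlesioned and lesioned fish thus differ in the cut, in the time since the first tracer and in the injection of a second one, and these cannot be told apart. Between regenerated and nonregenerated neurons, uptake of the second tracer goes with the group and cannot be told apart from it. The labels name no strain, age or sex, and do not say whether regenerated and nonregenerated cells came from the same fish or how many fish made up a sample.

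Chemokines are small secreted proteins that guide migrating cells through G protein-coupled receptors. Many interleukins, and the interferons, signal through paired receptors to Janus kinases, which phosphorylate STAT transcription factors. Tumour necrosis factor and Toll-like receptors act through NF-kappaB, which some, not all, of the IkappaB proteins hold in the cytoplasm. In the central nervous system much of this machinery, complement C1q and MHC class II included, belongs to microglia and invading leukocytes, but neurons and glia also make chemokines such as Cxcl12, whose receptors are Cxcr4 and Ackr3.

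The values are on a log2 scale and each probe set is centred on its own median over the 9 arrays. A value of 1 therefore stands for a doubling over the middle array of that probe set. Neither a level nor detection above background is known, so the labelled cell type could not be checked against the levels of its markers. Arrays were compared by differences of group means, each with its standard error (SE) from a limma fit over all 8793 genes. The threshold for a call was 0.05 on the p adjusted over all genes by the method of Benjamini and Hochberg. The labels call the samples biological replicates. In sorted bulk samples, fewer cells of a type and less RNA per cell cannot be told apart. The regenerated arrays were wider, with an SD over probe sets of 0.594 to 0.65 against 0.349 to 0.43 in the other groups. The median of 22 negative control probe sets was 0.48, 0.04 and 0.28 in regenerated arrays 1, 2 and 3, and between -0.16 and 0.08 elsewhere. Marker lists also moved with the groups. All 13 measured radial glia and astroglia markers had lower means in the regenerated group than in either other group, 5 of them called against the nonregenerated and 6 against the unlesioned group. Among 7 oligodendrocyte markers 4 were called lower in both comparisons. Of 12 neuronal markers 4 were called higher against the nonregenerated group and 2 against the unlesioned group. Against the unlesioned group only 7 of the 12 had higher means, with a median difference of 0.02. All 12 had lower means in nonregenerated than in unlesioned neurons (median difference -0.69), none of them called. The 6 measured erythroid markers had lower means in both lesioned groups than in the unlesioned group, with medians of -1.63 in nonregenerated and -1.03 in regenerated neurons and 1 call, in the latter. Their mean per array was 0.44 to 1.88 in unlesioned, -0.69 to -0.61 in nonregenerated and -0.25 to 0.39 in regenerated arrays. The part of these shifts in the results below was not tested.

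One of the 76 genes was called. It is cxcl12a, a ligand of Cxcr4 that guides migrating cells and growing axons, and it fell in regenerated against nonregenerated neurons. That is 1.32% of the 76 genes, where 2.96% of all genes were called in this comparison (1.25% higher and 1.71% lower), so the set was called no more often than genes at large. None of the 76 was called in regenerated against unlesioned neurons, where 2.26% of all genes were called (0.91% higher and 1.35% lower). None was called in nonregenerated against unlesioned neurons, where 0% of all genes were called. The limma F test for any difference among the 3 groups called 2.35% of all genes and none of the 76, with cxcl12a the lowest at an adjusted p of 0.0914.

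Without adjustment, 6 of the 76 genes had p under 0.05 in regenerated against nonregenerated neurons (7.89%, against 16.8% of all genes), 1 higher and 5 lower. In regenerated against unlesioned neurons there were 8 (10.5%, against 15.1%), 5 higher and 3 lower. In nonregenerated against unlesioned neurons there were 7 (9.21%, against 5.39%), 6 higher and 1 lower. Genes whose groups did not overlap were counted as well. There were 9 such genes between regenerated and nonregenerated arrays (11.8%, against 22.2% of all genes), 10 between regenerated and unlesioned arrays (13.2%, against 20.1%) and 10 between nonregenerated and unlesioned arrays (13.2%, against 11.8%). In both comparisons of the regenerated group the shares lay below those of all genes. Between nonregenerated and unlesioned neurons they lay above, with the share without overlap close to that of all genes. The counts are small, and these differences in share were not tested.

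The medians of the set sat near zero. The median difference of the 76 genes was -0.03 between regenerated and nonregenerated neurons (0.06 over all genes), 0.11 between regenerated and unlesioned neurons (0.06) and 0.09 between nonregenerated and unlesioned neurons (-0.01). Above 0 were 37, 45 and 43 of the 76 genes in that order (48.7%, 59.2% and 56.6%, against 55.4%, 56.3% and 47.8% of all genes). Without the 12 genes of other function the medians were -0.03, 0.15 and 0.19. The missing calls do not show that these genes are equal: the 95% interval of the difference lay within 1 log2 unit of 0 for 39, 38 and 42 of the 76 genes, and for the rest it reaches past that range.

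**Figure D1:**
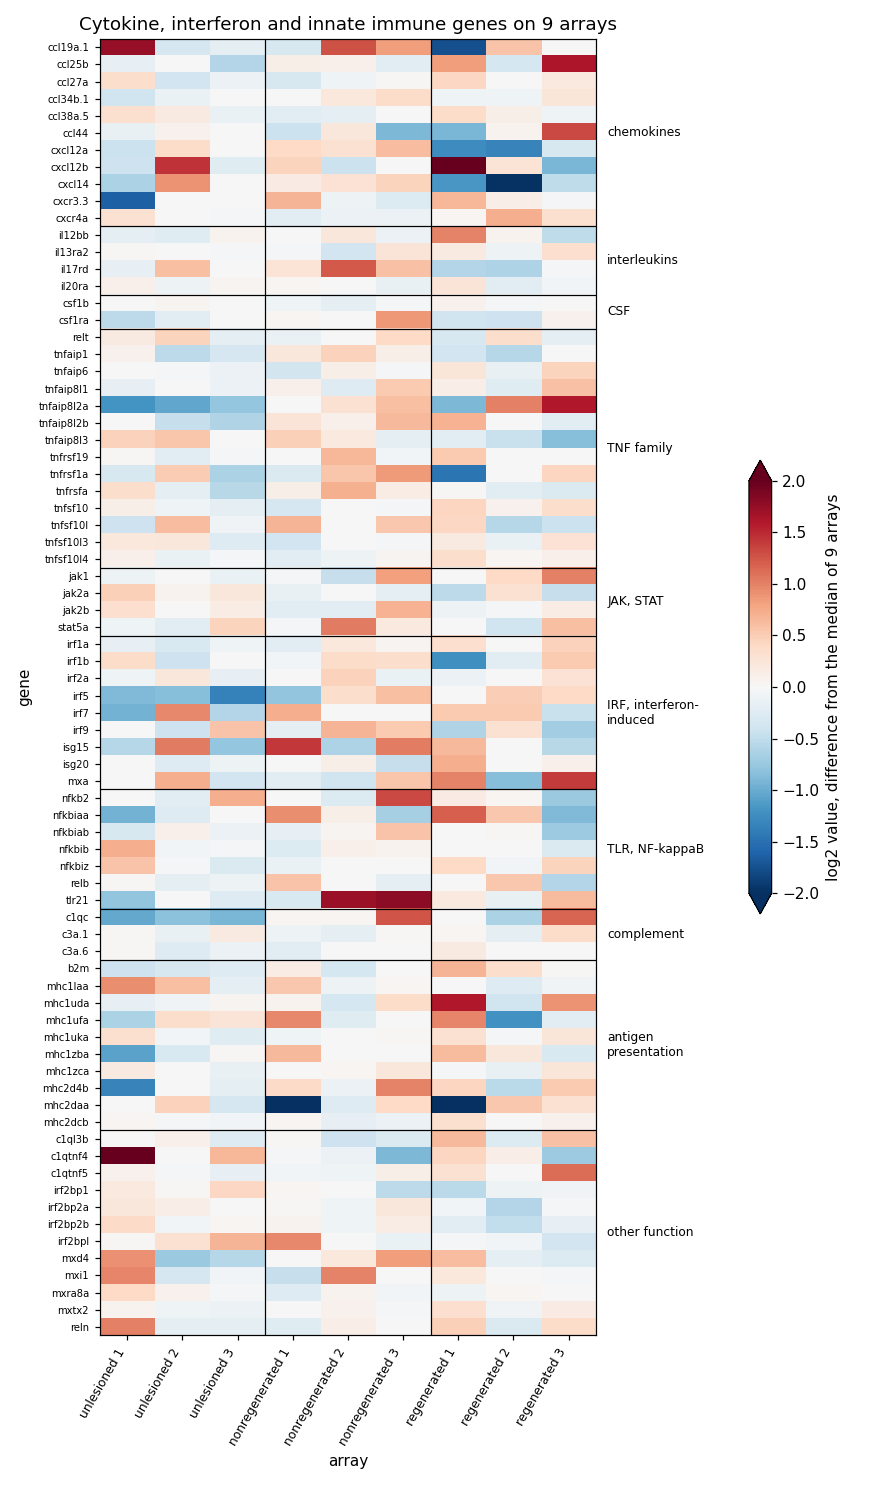
Log2 value of each of the 76 genes (rows, grouped by role) in each of the 9 arrays (columns, by group), relative to the median over the arrays. Colour runs from -2 to 2 and stronger values take the end colour. The cxcl12a and cxcl14 rows are lower in the 3 regenerated arrays than in every nonregenerated array. In regenerated array 3 they are at -0.31 and -0.51, above unlesioned array 1 at -0.42 and -0.63. The mhc2daa row is at -5.46 and -5.52 in nonregenerated array 1 and regenerated array 1.

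**Figure D2:**
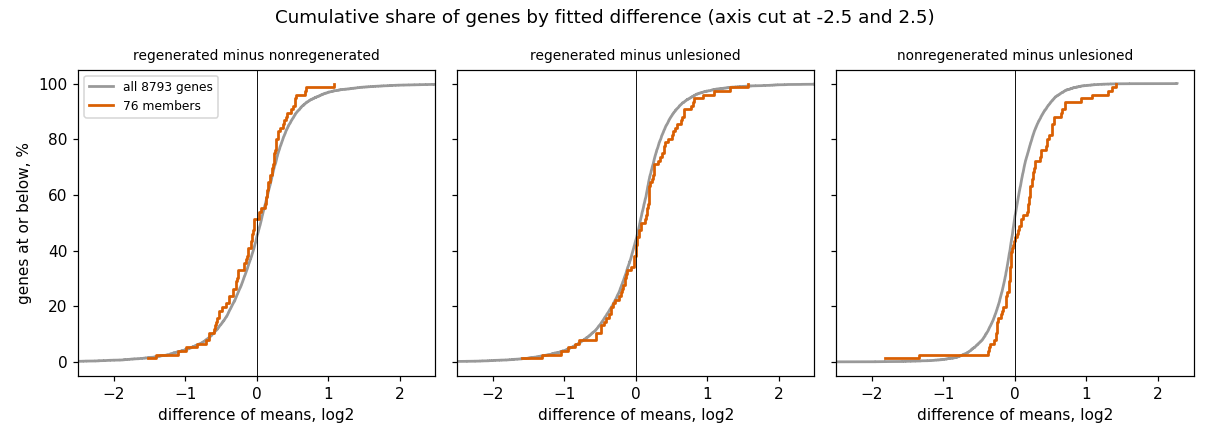
Cumulative share of genes (vertical axis) by log2 difference of group means (horizontal axis) for the 76 genes and for all 8793 genes, in the 3 comparisons. The medians were -0.03, 0.11 and 0.09 for the 76 genes against 0.06, 0.06 and -0.01 for all genes. In nonregenerated against unlesioned neurons the quartiles of the 76 genes were -0.09 and 0.36, against -0.18 and 0.18. Differences of more than 1 log2 unit were seen in 5.26%, 7.89% and 7.89% of the 76 genes, against 7.52%, 6.77% and 1.58% of all genes. The 76 genes also spread more within groups, with an upper quartile of the pooled SD of 0.62 against 0.48 for all genes. The genes past 1 log2 unit in nonregenerated against unlesioned neurons include mhc2daa, the widest (pooled SD 2.72), and c1qtnf4, of another function. The part of this spread in the shares was not tested.

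The chemokine group holds 11 measured genes: 9 ligands and the receptors cxcr3.3 and cxcr4a. Of these 1 was called lower in regenerated against nonregenerated neurons and none was called in the other comparisons. Values of cxcl12a were -0.42, 0.37 and 0.00 in unlesioned arrays 1, 2 and 3, then 0.40, 0.30 and 0.61 in the nonregenerated arrays and -1.26, -1.33 and -0.31 in the regenerated arrays. All 3 regenerated arrays lay below all 3 nonregenerated arrays, while regenerated array 3 lay above unlesioned array 1. The fall against the nonregenerated group was -1.40 ± 0.31 (SE, n = 3 against 3 arrays; 2.64-fold lower, 95% interval -2.09 to -0.72, limma adjusted p = 0.0455). It ranked 220 of 8793 genes by p.

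Both probe sets of cxcl12a gave the same direction, at -1.34 and -1.47. Against the unlesioned group cxcl12a differed by -0.95 ± 0.31 (adjusted p = 0.171), and the nonregenerated group differed from the unlesioned one by 0.45 ± 0.31 (adjusted p = 0.973). The call is narrow. Leaving out 1 array at a time ended it in 7 of 9 cases, every case except unlesioned array 1 and regenerated array 3, and 15 of 20 alternatives ended it in all. The difference itself stayed between -1.76 and -1.22, with adjusted p from 0.0161 to 0.21. Radial glia markers averaged -1.75 to -0.76 in the regenerated arrays and -0.05 to 0.38 in the nonregenerated ones, beside the fall of cxcl12a, and their part in it was not tested.

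A similar order of groups was seen for cxcl14, a chemokine made by many epithelia and also by neurons in mammals, without a call. Its values were -0.63, 0.90 and 0.00 in unlesioned, 0.17, 0.29 and 0.44 in nonregenerated and -1.17, -1.98 and -0.51 in regenerated arrays. The regenerated arrays lay below every nonregenerated array, and array 3 of the regenerated group lay within the unlesioned range. The difference was -1.52 ± 0.43 against nonregenerated (adjusted p = 0.103) and -1.31 ± 0.43 against unlesioned neurons (adjusted p = 0.178), the former the most negative difference among the 76 genes in that comparison.

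For the receptor side, cxcr4a, the paralog of the receptor gene that the rule leaves out, read 0.31, 0.00 and -0.02 in unlesioned, -0.22, -0.12 and -0.12 in nonregenerated and 0.03, 0.72 and 0.32 in regenerated arrays. All regenerated arrays lay above all nonregenerated arrays, in a comparison where 22.2% of all genes had no overlap in either direction. The difference of 0.51 ± 0.21 was not called (adjusted p = 0.265). The other receptor, cxcr3.3, differed by 0.15 from the nonregenerated and by 0.80 from the unlesioned group (adjusted p = 0.894 and 0.44), and its lowest array was unlesioned array 1 at -1.64.

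The paralogous ligand gene cxcl12b did not follow cxcl12a. Its values were -0.41, 1.44 and -0.24 in unlesioned, 0.44, -0.44 and 0.00 in nonregenerated and 3.88, 0.27 and -0.91 in regenerated arrays. One array, regenerated 1, stands far above the others, and the other two lie within the range of the unlesioned group or below it. The difference of 1.08 ± 1.03 between regenerated and nonregenerated neurons was not called (adjusted p = 0.636). On the same array the mean of the 4 measured endothelial markers was 2.47, with kdrl (the endothelial receptor for vascular endothelial growth factor) at 4.75, against means of -0.17 to 0.34 on the other 8 arrays. In zebrafish cxcl12b is expressed along vessels. The part of endothelial RNA in that value was not tested.

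Among the CC chemokines, ccl19a.1 spread widely within each group, with 1.75, -0.34 and -0.19 in unlesioned, -0.32, 1.27 and 0.84 in nonregenerated and -1.76, 0.57 and 0.00 in regenerated arrays. The groups overlap, and the difference of -0.99 ± 0.72 between regenerated and nonregenerated neurons was not called (adjusted p = 0.514). For ccl25b, whose mammalian counterpart attracts T-cell precursors to the thymus, regenerated arrays read 0.83, -0.36 and 1.61. Its unlesioned arrays ranged from -0.59 to 0.00, and the difference was 0.95 ± 0.42 (adjusted p = 0.33). The ccl44 arrays ran from -0.91 to 1.32 within the regenerated group alone, with a difference of 0.53 ± 0.49 from the nonregenerated group (adjusted p = 0.62). For ccl27a, ccl34b.1 and ccl38a.5 every difference lay between -0.26 and 0.37.

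**Figure D3:**
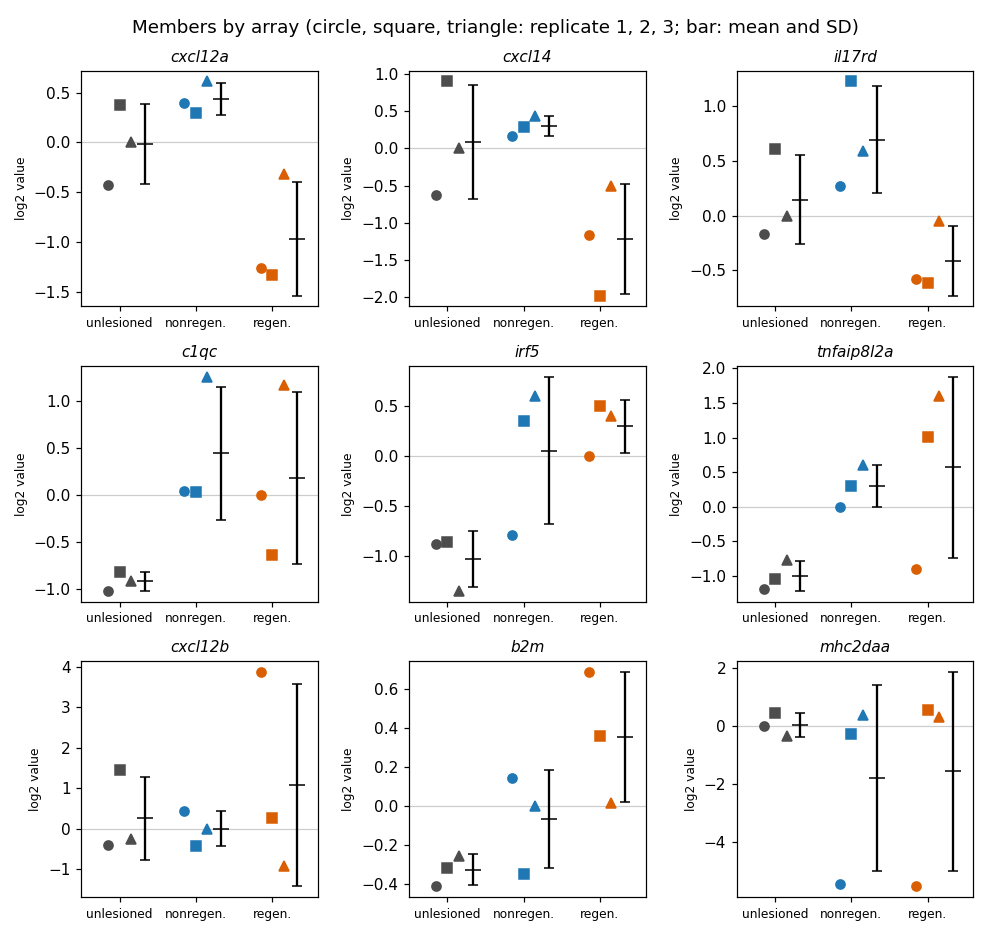
Log2 value relative to the median over the arrays (vertical axis) for 9 of the genes in each array (points), by group (horizontal axis), with the group mean and SD (n = 3). The cxcl12a panel shows the 3 regenerated arrays at -1.33 to -0.31 below the nonregenerated arrays at 0.30 to 0.61, and the c1qc and irf5 panels show unlesioned arrays at the bottom.

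Interleukin genes were few. The set holds 1 subunit gene of a ligand, il12bb (a p40 subunit of interleukin 12), and the receptor genes il13ra2, il17rd and il20ra, and none of the 4 was called. The gene il17rd, also known as sef and named for its relation to interleukin 17 receptors, is known in zebrafish as a feedback inhibitor of fibroblast growth factor signalling. It read -0.17, 0.61 and 0.00 in unlesioned, 0.27, 1.23 and 0.59 in nonregenerated and -0.58, -0.61 and -0.05 in regenerated arrays.

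Every regenerated array of il17rd lay below every nonregenerated array. The difference was -1.11 ± 0.31 (95% interval -1.79 to -0.42), with an adjusted p of 0.0965 that missed the threshold. Against unlesioned neurons it was -0.56 ± 0.31 (adjusted p = 0.423). The other 3 genes differed by -0.06 to 0.31 in all comparisons.

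Both genes of the colony stimulating factor pair, which sustains macrophages and microglia, were uncalled. The ligand gene csf1b varied little over the arrays, from -0.18 to 0.09. The receptor gene csf1ra, a marker of macrophages, microglia and pigment cells in zebrafish, read -0.52, -0.21 and 0.00 in unlesioned, 0.04, 0.01 and 0.87 in nonregenerated and -0.39, -0.41 and 0.08 in regenerated arrays. Nonregenerated arrays lay above all unlesioned arrays, with a difference of 0.55 ± 0.28 (adjusted p = 0.949). Regenerated and unlesioned means of csf1ra were equal to 2 decimals (-0.24 each), with a 95% interval of the difference from -0.62 to 0.62.

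The tumour necrosis factor family was the largest group with 14 genes, none of them called. The genes tnfa and tnfb themselves were not analysed here. It holds death ligand genes related to TRAIL (tnfsf10, tnfsf10l, tnfsf10l3, tnfsf10l4), receptor genes (tnfrsf1a, tnfrsf19, tnfrsfa, relt) and genes named for their induction by tumour necrosis factor. Of the last kind tnfaip8l2a had the largest differences. Its mammalian counterpart TIPE2 restrains signalling of immune receptors and is known mainly from leukocytes.

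Values of tnfaip8l2a were -1.19, -1.04 and -0.77 in unlesioned, 0.00, 0.31 and 0.61 in nonregenerated and -0.90, 1.01 and 1.61 in regenerated arrays. All nonregenerated arrays and regenerated arrays 2 and 3 lay above the unlesioned arrays, and regenerated array 1 lay among them. The difference from the unlesioned group was 1.57 ± 0.53 for regenerated (adjusted p = 0.19) and 1.31 ± 0.53 for nonregenerated neurons (adjusted p = 0.884). Without regenerated array 1 the former was 2.31 with an adjusted p of 0.00458, past the threshold. That array was the lowest of its group, so leaving it out had to widen the difference. Leaving out any other single array gave no call of tnfaip8l2a in that comparison. The paralog tnfaip8l2b differed by 0.52 and 0.70 in the same 2 comparisons (adjusted p = 0.419 and 0.884).

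Another relative, tnfaip8l3, which in mammals carries phosphoinositide lipids, had differences of the opposite sign. It read 0.46, 0.55 and 0.00 in unlesioned, 0.47, 0.20 and -0.18 in nonregenerated and -0.22, -0.45 and -0.85 in regenerated arrays. All 3 regenerated arrays lay below the other 6. Of all genes 22.2% had no overlap between regenerated and nonregenerated arrays and 20.1% between regenerated and unlesioned arrays, in either direction. The share of all genes with both at once was not counted. The difference was -0.85 ± 0.25 against unlesioned (adjusted p = 0.141) and -0.67 ± 0.25 against nonregenerated neurons (adjusted p = 0.228).

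Among the receptor genes, tnfrsf1a, which encodes the main receptor for tumour necrosis factor, spread from -1.46 to 0.43 within the regenerated group. Its difference of -0.72 from the nonregenerated group was not called (adjusted p = 0.506). For tnfrsfa and tnfsf10 the regenerated and nonregenerated arrays did not overlap, at -0.48 and 0.41, with adjusted p of 0.404 and 0.32. Of all genes 22.2% had no overlap in this comparison. These 2 genes were singled out after their values were seen. The negative control medians did not overlap either, at 0.48, 0.04 and 0.28 in regenerated and -0.16, -0.006 and -0.0008 in nonregenerated arrays. Their part in the value of tnfsf10 was not tested. Single probe sets of tnfrsfa differed by -0.58, -0.38 and -0.48. On the first, regenerated array 1 (0.57) lay above nonregenerated array 3 (0.00). On the last, whose suffix marks shared sequence, regenerated array 2 (0.16) lay above nonregenerated array 1 (0.00). Within the family 6, 8 and 8 of 14 genes had a difference above 0 in regenerated against nonregenerated, regenerated against unlesioned and nonregenerated against unlesioned neurons.

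The Janus kinase and STAT genes of the set were jak1, jak2a, jak2b and stat5a, which relay signals of cytokine receptors. None was called. For jak1 the arrays read -0.10, 0.00 and -0.13 in unlesioned, -0.04, -0.46 and 0.82 in nonregenerated and 0.01, 0.40 and 1.01 in regenerated neurons. The regenerated arrays lay above the unlesioned ones, by 0.55 ± 0.34 on average (adjusted p = 0.491). For jak2a the unlesioned arrays (0.07 to 0.47) lay above the nonregenerated ones (-0.17 to 0.00), with a difference of -0.36 ± 0.25 (adjusted p = 0.973). The differences of jak2b and stat5a lay between -0.33 and 0.35.

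Interferon regulatory factors are transcription factors that switch on interferons and their targets. With the interferon-induced genes isg15, isg20 and mxa they made 9 genes, none called. Their medians were -0.04 between regenerated and nonregenerated, 0.39 between regenerated and unlesioned and 0.23 between nonregenerated and unlesioned neurons, with 4, 7 and 8 of 9 above 0. Over all genes the medians were 0.06, 0.06 and -0.01, with 55.4%, 56.3% and 47.8% above 0. The medians and counts of these 9 genes were not tested. The largest difference among the 9 was that of irf5, which in mammals acts below Toll-like receptors in macrophages. Its values were -0.88, -0.85 and -1.34 in unlesioned, -0.78, 0.35 and 0.60 in nonregenerated and 0.00, 0.50 and 0.40 in regenerated arrays.

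All 6 arrays of lesioned fish lay above all 3 unlesioned arrays for irf5, nonregenerated array 1 by a small margin. The difference from unlesioned neurons was 1.33 ± 0.35 in regenerated (95% interval 0.55 to 2.10, adjusted p = 0.0963) and 1.08 ± 0.35 in nonregenerated neurons (adjusted p = 0.766). Neither was called, although leaving out nonregenerated array 1 brought the former to an adjusted p of 0.0295. That array lay apart from the others of its group. Leaving out any other single array gave no call of irf5 in regenerated against unlesioned neurons. Of the 76 genes 2 (2.63%) had all unlesioned arrays below all 6 lesioned arrays, irf5 and c1qc, against 1.55% of all genes. None had the unlesioned arrays above all lesioned arrays, against 1.48% of all genes.

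No interferon-induced gene was called. Arrays of isg15, a ubiquitin-like modifier induced by interferon, read -0.58, 1.04 and -0.77 in unlesioned, 1.42, -0.62 and 1.02 in nonregenerated and 0.65, 0.00 and -0.56 in regenerated neurons. High and low arrays stood in every group. The difference from unlesioned neurons was 0.13 ± 0.61 for regenerated (adjusted p = 0.94) and 0.71 ± 0.61 for nonregenerated neurons (adjusted p about 1). The antiviral GTPase gene mxa ranged from -0.85 to 1.40 within the regenerated group, with a difference of 0.41 ± 0.55 from unlesioned neurons (adjusted p = 0.773). For irf7, the factor that amplifies interferon production in mammals, the difference was 0.39 ± 0.48 (adjusted p = 0.749). The gene irf1a had regenerated arrays at 0.34, 0.00 and 0.46 above unlesioned arrays at -0.16, -0.31 and -0.09, by 0.45 (adjusted p = 0.327), while its paralog irf1b differed by -0.29 ± 0.40 (adjusted p = 0.776). The gene irf1a was chosen after its values were seen.

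Toll-like receptors and NF-kappaB gave 7 genes, none called. The only Toll-like receptor gene among the 76 was tlr21, whose product recognises unmethylated CpG DNA in fish and birds. It read -0.78, 0.00 and -0.26 in unlesioned, -0.31, 1.72 and 1.79 in nonregenerated and 0.20, -0.14 and 0.63 in regenerated arrays. Nonregenerated arrays 2 and 3 were the 2 highest of the 9, while nonregenerated array 1 lay among the unlesioned arrays. The difference of 1.42 ± 0.51 from unlesioned neurons was the most positive among the 76 genes in that comparison and was not called (adjusted p = 0.817). Between regenerated and nonregenerated neurons it was -0.84 ± 0.51 (adjusted p = 0.446). Leaving out nonregenerated array 1 moved the latter to -1.53 with an adjusted p of 0.0472. That array was the lowest of its group, so leaving it out had to widen the difference. Leaving out any other single array gave no call of tlr21 in that comparison.

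The IkappaB gene nfkbiaa, itself a target of NF-kappaB, spread from -0.89 to 1.2 within the regenerated group, and its difference of 0.68 ± 0.55 from unlesioned neurons was not called (adjusted p = 0.594). Its paralog nfkbiab differed by -0.12 ± 0.27 (adjusted p = 0.87). The subunit genes nfkb2 and relb, of the noncanonical branch of the pathway, differed from unlesioned neurons by -0.35 ± 0.44 and 0.08 ± 0.30. For nfkbib and nfkbiz, which encode further IkappaB proteins, all differences lay between -0.31 and 0.30.

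Complement was represented by c1qc, a chain of C1q, and by 2 genes of component C3, none of them called. In mouse brain C1q is made mainly by microglia and tags synapses for removal. Values of c1qc were -1.02, -0.82 and -0.91 in unlesioned, 0.04, 0.03 and 1.26 in nonregenerated and 0.00, -0.63 and 1.17 in regenerated arrays. The 3 unlesioned arrays were the 3 lowest of the 9, while array 3 was the highest of both lesioned groups. The difference from unlesioned neurons was 1.36 ± 0.46 in nonregenerated (2.56-fold, 95% interval 0.33 to 2.39, adjusted p = 0.802) and 1.09 ± 0.46 in regenerated neurons (adjusted p = 0.302). The differences of c3a.6 lay between 0.05 and 0.17. Those of c3a.1 lay between -0.11 and 0.16, as the mean of 2 probe sets that had opposite signs in regenerated against nonregenerated neurons (-0.10 and 0.42).

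Of 31 listed leukocyte and microglia markers 16 were measured, csf1ra among them. Their mean per array was -0.22 to 0.05 in unlesioned, 0.04 to 0.37 in nonregenerated and 0.18 to 0.33 in regenerated arrays. The neutrophil and macrophage lysozyme gene lyz stood apart from the list, at 4.27, -0.01 and 3.74 in unlesioned arrays, with a difference of -2.81 ± 0.90 in regenerated neurons (adjusted p = 0.166). It was singled out after its values were seen. Over the other 15 markers the mean per array was -0.28 to -0.23 in unlesioned, 0.05 to 0.40 in nonregenerated and 0.18 to 0.35 in regenerated arrays. The median difference over the 16 was 0.53 for nonregenerated and 0.28 for regenerated against unlesioned neurons, and 13 of the 16 were above 0 in each. Below 0 were lyz, csf1ra (-0.0004) and cd74b (-0.04) in regenerated, and lyz (-2.73), cpa5 (-0.43) and mpx (-0.14) in nonregenerated neurons. With lyz kept, the mean of unlesioned array 1 (0.047) lay above that of nonregenerated array 2 (0.038). The genes c1qc, irf5, tnfaip8l2a and tlr21 are among the largest rises of the set in nonregenerated against unlesioned neurons. They were not picked independently of their values, and the part of leukocyte RNA in them was not tested. Of the 16, apoeb (apolipoprotein E, abundant in microglia) was called higher in regenerated against unlesioned neurons (adjusted p = 0.0405). That call ended on leaving out any 1 of the 9 arrays, and in 16 of 20 alternatives in all. The mast cell marker cpa5 was called higher in regenerated against nonregenerated neurons (1.72 ± 0.29, adjusted p = 0.0138). That call ended in 2 of 20 alternatives. These were leaving out nonregenerated array 3 and taking the negative control reading as a covariate (adjusted p = 0.1).

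Antigen presentation gave 10 genes, none called: b2m, 6 class I and 3 class II genes. Several MHC genes are near copies of one another, so values of single MHC genes are uncertain, and 1 probe set of mhc1uka carries a suffix that marks possible cross-hybridization. The light chain gene b2m, shared by class I molecules, read -0.41, -0.32 and -0.25 in unlesioned, 0.14, -0.35 and 0.00 in nonregenerated and 0.68, 0.36 and 0.02 in regenerated arrays. The regenerated arrays lay above all unlesioned arrays, with a difference of 0.68 ± 0.22 (95% interval 0.18 to 1.17, adjusted p = 0.173).

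The class I heavy chain genes were all uncalled, with differences of either sign. In regenerated against unlesioned neurons mhc1uda differed by 0.77 ± 0.43 and mhc1zba by 0.63, while mhc1laa differed by -0.56 (adjusted p = 0.442, 0.422 and 0.406). Within the regenerated group mhc1uda ran from -0.40 to 1.61. The remaining 3 class I genes, mhc1ufa, mhc1uka and mhc1zca, differed by -0.39 to 0.25 in all comparisons.

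The class II alpha chain gene mhc2daa varied most of all 76 genes (pooled SD within groups 2.72, against a median of 0.353). It read 0.00, 0.46 and -0.34 in unlesioned, -5.46, -0.26 and 0.40 in nonregenerated and -5.52, 0.55 and 0.31 in regenerated arrays. On nonregenerated array 1 and regenerated array 1 it was the lowest of all 8793 genes, and on the other 7 arrays it lay between -0.34 and 0.55. The gap between those 2 arrays and the other 7 was 5.12. Over all 36 pairs of arrays no other gene of the 8793 and no other probe set of the 15502 tested set a pair below all other arrays by more than 3. The labels do not say whether these 2 arrays share fish.

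The group means of mhc2daa rest on those 2 arrays: the difference from unlesioned neurons was -1.82 ± 1.77 in nonregenerated and -1.59 ± 1.77 in regenerated neurons (adjusted p about 1 and 0.717). The other 2 class II genes, which encode beta chains, did not share the low pair. On those arrays mhc2d4b read 0.38 and 0.43 and mhc2dcb 0.04 and 0.33. In regenerated against unlesioned neurons mhc2d4b differed by 0.64 ± 0.43 (adjusted p = 0.518) and mhc2dcb by 0.15 (adjusted p = 0.717).

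The 12 genes of other function were also uncalled. The largest difference was that of c1qtnf4, a secreted C1q and tumour necrosis factor related protein, at -1.34 ± 0.55 in nonregenerated against unlesioned neurons (adjusted p = 0.884), with unlesioned arrays at 2.32, 0.00 and 0.67. The 4 irf2bp genes, which encode partners of Irf2 that repress transcription in mammals, all had a mean below unlesioned neurons in the regenerated group, with differences of -0.49 to -0.34. The lowest adjusted p among them was 0.348. For 2 of them the mean joins probe sets that disagree in size, at -0.09 and -0.80 for irf2bp1 and at -0.02 and -0.80 for irf2bp2b. For c1ql3b, a synaptic C1q-like protein gene, the difference between regenerated and nonregenerated neurons was 0.55 ± 0.27 (adjusted p = 0.343), and reln differed by -0.24 to 0.23.

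**Figure D4:**
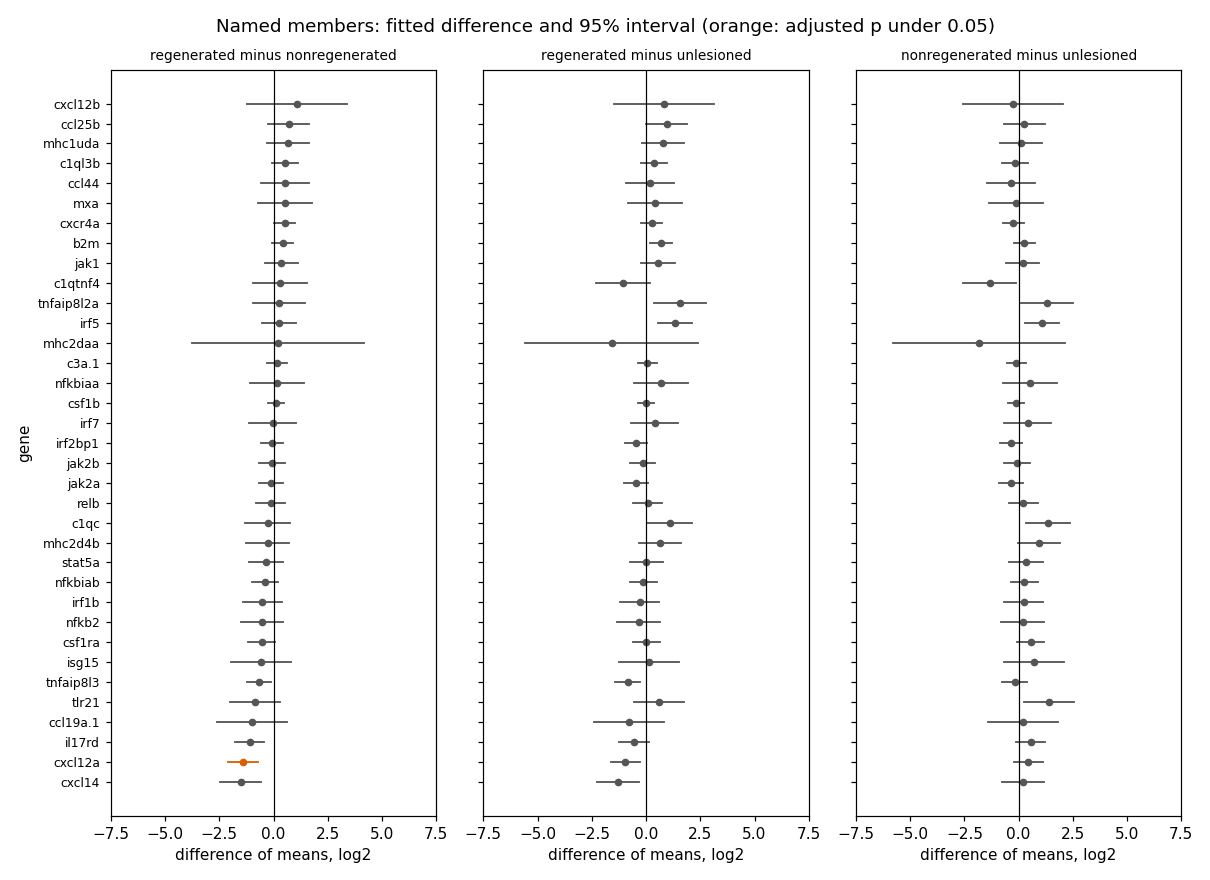
Log2 difference of group means (points) with the unadjusted 95% interval (bars) for 35 of the 76 genes in the 3 comparisons. Orange marks an adjusted p under 0.05, which cxcl12a reached in regenerated against nonregenerated neurons at -1.40 (interval -2.09 to -0.72), and the intervals of mhc2daa and cxcl12b are the widest.

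Genes of the same pathways outside the set were taken from a list of 160 names, of which 66 were measured. The list names interferon receptors, SOCS proteins, TRAF adaptors, IRAK kinases, inflammasome, proteasome and peptide transporter genes and the other complement components. Among the 66 measured, socs1a was the only SOCS gene, and no peptide transporter gene was present. In regenerated against nonregenerated neurons none of the 66 was called higher and 1 lower, beside 1.25% and 1.71% of all genes. In regenerated against unlesioned neurons 1 was called higher and 1 lower, beside 0.91% and 1.35% of all genes. None was called in nonregenerated against unlesioned neurons, beside 0% of all genes. Their median differences were 0.05, 0.14 and -0.03.

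The gene called lower in both was c7b, of complement component 7 in the membrane attack complex. It read 0.54, 0.00 and 0.26 in unlesioned, -0.25, 0.32 and 0.59 in nonregenerated and -1.07, -3.82 and -2.23 in regenerated arrays. The regenerated arrays did not overlap with the other 6. Of all genes 22.2% had no overlap with the nonregenerated and 20.1% with the unlesioned arrays, in either direction. The fall was -2.59 ± 0.57 against nonregenerated (adjusted p = 0.0456) and -2.64 ± 0.57 against unlesioned neurons (adjusted p = 0.0481). Both calls ended on leaving out any 1 array other than regenerated array 1. Of 20 alternatives in all, 13 ended the call against nonregenerated and 12 that against unlesioned neurons.

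The gene called higher was pycard, the adaptor Asc of inflammasomes. It read -1.98, -1.57 and -0.81 in unlesioned, -0.31, 0.00 and 0.14 in nonregenerated and 0.29, 0.02 and 0.15 in regenerated arrays. All 6 lesioned arrays lay above the unlesioned ones, an order that 1.55% of all genes had. From the same list c8b and cfp had that order too, and hmgb1b had the reverse. The rise was 1.60 ± 0.29 in regenerated (adjusted p = 0.0237), and for nonregenerated neurons the difference was 1.39 ± 0.29 (adjusted p = 0.517). The call ended without unlesioned array 1 or 2 or regenerated array 2 or 3, and in 8 of 20 alternatives in all. The difference between regenerated and nonregenerated neurons was 0.21 (adjusted p = 0.746).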

How the data were processed

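The authors deposited log2 values made with RMA, per the submitters' processing notes, which give no version. Each of the 15617 probe sets had a median of 0 over the 9 arrays (tolerance 0.0001). How they were centred is not stated. The RNA was amplified before labelling, per the labels' protocols. The 115 control probe sets were left out of the tests, and negative controls were 22 probe sets for tag, fluorescent protein and lox sequences. Of the 15502 tested, 10795 had 1 symbol in the platform annotation, 135 several and 4572 none. Probe sets of a gene were averaged, which touched 12 of the 76 genes.

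Group means of 8793 genes over 9 arrays were fitted with limma 3.58.1 in R 4.3.3. Variances were moderated with 3.54 prior beside 6 residual degrees of freedom, p-values were two-sided, and Benjamini-Hochberg adjustment ran over all genes in each comparison. The fit was tested on simulated data with independent arrays and, for each gene, the same SD in every group. In the measured data the median SD over genes was 0.25 in unlesioned, 0.26 in nonregenerated and 0.33 in regenerated arrays. The simulation therefore does not cover the wider spread of the regenerated group. Intervals are 95% and unadjusted. The 3 comparisons share groups and are not independent. The number of arrays limits the precision. The genes, gene lists, tests and alternatives were chosen with earlier results of these data known. Roles were assigned from symbols. Genes named with values are those called, the 5 largest rises and falls in each comparison, and a list of 21 measured genes, which gave 35. Further genes of the set given with single values (cxcr3.3, tnfaip8l2b, tnfrsf1a, tnfrsfa, tnfsf10, irf1a, mhc1zba, mhc1laa and mhc2dcb) were chosen after their values were seen. The rest are described by range or only counted with their group. Alternatives covered array scaling, array weights, moderation, groups fitted, single arrays, the replicate number, a negative control covariate, the value per gene and the threshold. Figures were drawn with matplotlib 3.10.9. No sequences were used here.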

Additional observations from a re-analysis of the deposited data

How the results depend on the processing

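The single call, cxcl12a in regenerated against nonregenerated neurons, was sensitive. The count of 1 became 0 with a further quantile normalization, array weights, robust moderation, the 2 groups fitted alone, the negative control reading as a covariate, the probe set of largest SD, or nonregenerated 1 and regenerated 1 left out together. It became 2 (il17rd added) at an adjusted p under 0.1. Leaving out 1 array gave 0 to 1, and without nonregenerated array 1 the gene called was tlr21, not cxcl12a. With the replicate number as a block the count was 0 (cxcl12a adjusted p = 0.0516). Same-numbered arrays of the lesioned groups correlated at 0.11, -0.03 and 0.24 in their deviations from group means. Between these groups, arrays of different number correlated at -0.24 to 0.13. So few arrays cannot decide whether the numbers pair samples, and the main fit did not pair them. Nonregenerated 1 and regenerated 1 do share the low mhc2daa value, and whether they share fish is not stated in the labels.

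In regenerated against unlesioned neurons the count of 0 became 1 at an adjusted p under 0.1 (irf5) and 0 to 1 on leaving out 1 array (irf5 without nonregenerated 1, tnfaip8l2a without regenerated 1). It became 1 without regenerated 1 and 3 (tnfaip8l2a) and 2 without nonregenerated 1 and regenerated 1 (both genes). By the F test, leaving out 1 array gave 0 to 2. It gave 1 without regenerated 1 and 3 and 3 without nonregenerated 1 and regenerated 1 (irf5, tlr21 and tnfaip8l2a). In nonregenerated against unlesioned neurons the count stayed at 0 under every alternative run.

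Medians of the 76 genes changed sign in part. Between regenerated and nonregenerated neurons the median was -0.15 after centring on the 75th percentile and -0.18 with the covariate, with -0.0499 to 0.0406 on leaving out 1 array. Between regenerated and unlesioned neurons it was -0.0077 and -0.0723 in the same 2 settings, -0.0359 without regenerated 1 and 3, and 0.0415 to 0.212 on leaving out 1 array. The 75th percentile moved the median of all genes by -0.12 and -0.11, a shift common to every gene. With the covariate the set's median less that of all genes was -0.17 and -0.06, against -0.09 and 0.05 without it. Between nonregenerated and unlesioned neurons the median was 0.19 without the 12 genes of other function. Choices that left out 2 arrays together or the 12 genes were made after seeing the data. Of 2100 comparisons of a named gene's difference with an alternative, 15 lost a call, all of them cxcl12a against the nonregenerated group, 6 gained one and no called value turned its sign. Fits that left arrays out also had fewer of them, and the causes of these changes were not tested.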
